A study of Mus musculus with 54 samples.

Results

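Zfp_MB028 and Gm21411 are KRAB zinc finger proteins (KZFPs) of the mouse Chr4 cluster that carry the same fingerprint array, the string of DNA-contacting residues read from their 15 zinc fingers. Their ChIP-seq peak lists hold 1514 of the 25012 peaks of the series, 1424 for Zfp_MB028 and 90 for Gm21411, and were taken whole, by the names of the KZFPs. Each list comes from 1 library of batch 4, so no difference between the libraries has a replicate check, no test was run, and intervals are exact 95% binomial intervals that cover counting error only.

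The series mapped the binding of 42 KZFPs, each with 1 library here. F9 mouse embryo carcinoma cells were made to over-express a codon-optimized coding sequence with a C-terminal HA tag from a Sleeping Beauty vector, selected with puromycin, and precipitated with an HA antibody. The cells were a selected pool of transfected cells in both libraries, and the cells of both keep their own KZFPs beside the tagged protein. Both libraries were compared with the same mixed input of their batch. The study lists more reads for Zfp_MB028 than for Gm21411. Fragments recovered from the lists are given further on and are not a measure of sequencing depth.

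KZFPs bind DNA through their zinc finger arrays and recruit the co-repressor TRIM28 through the KRAB domain, which brings in H3K9 methylation. Many of them silence endogenous retroviruses in embryonic cells. Intracisternal A particles (IAPs) are retroviruses of the mouse genome with long terminal repeats (LTRs) on both sides of an internal region that holds the gag and pol genes, and they are among the youngest and most active of these elements.

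The sequences under the peaks are shown first, since the results turn on single bases in them. The motif sequences that the study lists were AATGGACCAGC for Zfp_MB028 and GTATAAGCTGGTCCA for Gm21411. They lie on opposite strands of the same stretch and share 9 bases, and joined they form a word of 17 bases. In the reference provirus, an IAP on chromosome 2 of GRCm39 with LTRs at chr2:23808764-23809224 and chr2:23815937-23816405 that are 97.7% identical, the site lies on the antisense strand of the internal region at chr2:23810868-23810890 (plus strand), written here with the joined motif in capitals.
Reference provirus: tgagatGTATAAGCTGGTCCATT

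These 23 bases are called the site, and positions in it are counted from 1 at its 5′ end. Other IAP copies of the mouse genome differ from it at single bases. The copies below are those of highest identity to the provirus for each change, at chr10:7364546-7364568, chr15:39039751-39039773 and chr11:28052490-28052512 of GRCm39 (all on the minus strand), and the capital marks the base that differs. None of the 3 copies carried a peak of either list.
T6C copy: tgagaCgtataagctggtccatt
A3G copy: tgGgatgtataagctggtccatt
A9G copy: tgagatgtGtaagctggtccatt

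Peaks whose 200 bp around the summit did not align to the internal region of the provirus are called off IAP. LTRs were not searched, so an off-IAP peak could still lie in one. Of the 406 Zfp_MB028 sites off IAP, 340 carried a looser form of the site, by a matrix described further on. The 6 strongest off-IAP sites in both lists are shown over the 20 bases that best matched this matrix, with bases equal to those of the provirus in capitals. They share 7 to 16 of the 20 bases with the provirus. They lie in GRCm39 at chr2:40801116-40801135 (minus strand) in an intron of Lrp1b, chr6:113688039-113688058 (plus) in an exon of Tatdn2, chr16:8950358-8950377 (minus) in the long non-coding RNA gene Gm49448, chr4:45507075-45507094 (plus) in an intron of Shb, chr4:54999720-54999739 (minus) in an intron of Zfp462, and chrX:133630618-133630637 (minus), between genes.
Lrp1b site: aGAaATGTATAgcCTGaata
Tatdn2 site: gGAtATaTATAAtCTGGTCC
Gm49448 site: aaAaAaacATAgctcttgCC
Shb site: aGAaATGcAcAgGCcGcaCC
Zfp462 site: gaAaAaGTATAAGCaaccCC
Chromosome X site: aGAaAgccAcAgatcGtaCC

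The first question was which Zfp_MB028 sites recur with Gm21411. Of the 90 Gm21411 peaks, 89 (98.9%) overlapped a Zfp_MB028 peak by at least 1 bp, each its own, so that 89 of the 1424 Zfp_MB028 peaks (6.25%, interval 5.05% to 7.64%) were in the Gm21411 list. As a background, 0.0468% of the 23498 peaks of the other 40 lists overlapped a Gm21411 peak and 0.506% a Zfp_MB028 peak. All 89 Gm21411 peaks lay wholly inside their Zfp_MB028 peak. The summits were a median of 13 bp apart, 86 of 89 pairs were within 50 bp, and the widest gap was 70 bp.

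The exception was a Gm21411 peak on chromosome 17 at chr17:24429946-24430406, in an intron of the long non-coding RNA gene BC028777 and 1637 bp from the start of Ntn3, which encodes netrin 3, an axon guidance protein. It had a fold enrichment of 11.7 over input, 25 fragments at the summit and rank 53 of 90. Its best match to the site had 14 of 20 bases in common with the provirus, shown in capitals, at chr17:24430195-24430214 of GRCm39 (minus strand).
Gm21411 peak without a Zfp_MB028 peak: aGAGAgtTATAAGCaGcTCt

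The Zfp_MB028 sites in the Gm21411 list were the more enriched ones. Their median fold was 41.2 (quartiles 33.0 and 48.9, n = 89), against 13.5 (11.5 and 17.4, n = 1335) for the sites not in it. The ranges overlapped between 18.7 and 47.5. Of the sites not in the list, 272 had a higher fold than the weakest site in it, and 25 of the 89 had a higher fold than any site not in it. All of the top 20 Zfp_MB028 peaks by fold were in the Gm21411 list, then 65 of the top 90 and 88 of the top 360. The strongest Zfp_MB028 peak not in the list ranked 26 with a fold of 47.5, on an IAP on chromosome 1 with its summit at 112193999, and the weakest in the list ranked 361 with a fold of 18.7, in an intron of the long non-coding RNA gene Gm70872. The next 4 strongest outside the list had folds of 46.3 and 44.3 on IAPs of chromosomes 13 and 4, and of 43.4 and 42.4 off IAP on chromosomes 13 and 19. The peak on the reference provirus, which was in both lists, had a fold of 45.8 and 142 fragments with Zfp_MB028, and a fold of 15.2 and 33 fragments with Gm21411.

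Taken by fold, the share in the Gm21411 list was 0 of 847 peaks between 10 and 15 (up to 0.435%), 1 of 265 between 15 and 20, 29 of 71 between 30 and 40 (40.8%, 29.3% to 53.2%) and 26 of 32 between 40 and 50 (81.3%, 63.6% to 92.8%). It was 21 of 21 at 50 or more.

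Sites in the list were also wider, with a median of 1086 bp (quartiles 936 and 1345) against 727 bp (589 and 876). None of the 356 Zfp_MB028 peaks under 600 bp was in the Gm21411 list (up to 1.03%), and 30 of the 79 of at least 1200 bp were (38.0%, 27.3% to 49.6%). At matched fold the widths lay close together. Between 30 and 40, the median was 1009 bp for 29 sites in the list and 1058 bp for 42 sites not in it, and between 20 and 30 it was 866.5 bp for 12 sites and 916.5 bp for 176.

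**Figure D1:**
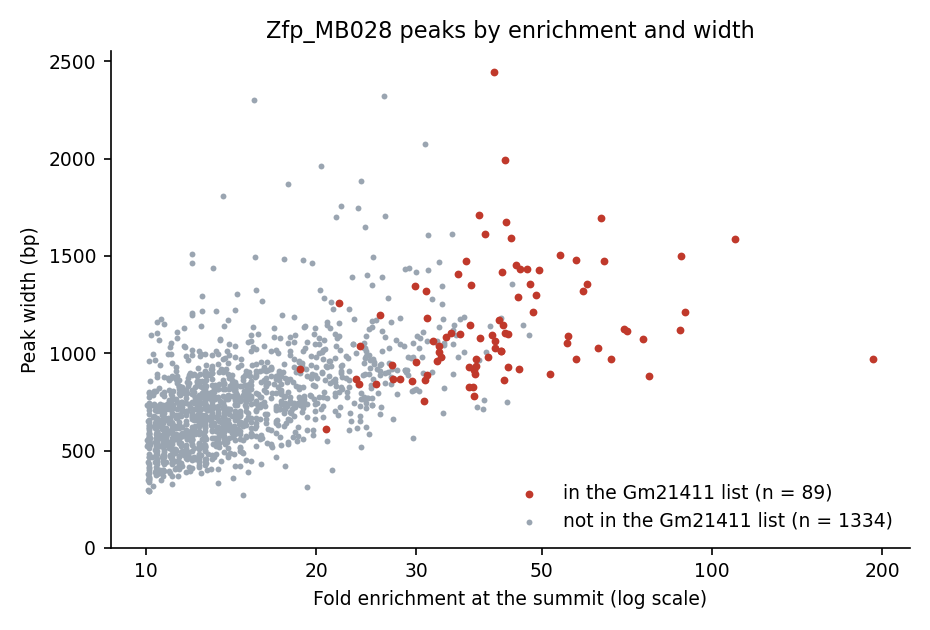
Fold enrichment at the summit (log scale) against peak width in bp for the Zfp_MB028 peaks on chromosomes, with each point a peak, red for the 89 in the Gm21411 list and grey for the 1334 not in it. Red points lie at a fold of 18.7 or more and every point at 50 or more is red.

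The number of fragments behind each peak was recovered from the fold and the -log10 p of the peak caller, and it fell on a whole number for all 1424 and all 90 peaks (within 0.01 of the -log10 p). At its summit a Zfp_MB028 peak held a median of 49 fragments (30 to 663) and a Gm21411 peak 32.5 (21 to 173). The commonest local background was 2.07 fragments for Zfp_MB028 (472 peaks) and 1.18 for Gm21411 (20 peaks), a ratio of 1.75.

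At the 89 sites in both lists, Zfp_MB028 had a median of 150 fragments (71 to 663) and Gm21411 33 (21 to 173). The ratio per site averaged 4.6 ± 1.02 (SD over 89 sites of the same 2 libraries) and lay between 2.69 and 7.11, above the ratio of the backgrounds at all 89 sites. Fold was higher by a median of 3.19 times with Zfp_MB028, and width by 2.68 times. Across the sites the fragments of both libraries kept nearly the same order, with a Pearson's r of 0.86 for log2 fragments and a Spearman's rho of 0.83, and r was 0.84 without the strongest site. These are descriptions of 89 sites that had to pass the cutoff in both lists. How far the amount of each tagged protein or the quality of each precipitation took part was not tested.

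**Figure D2:**
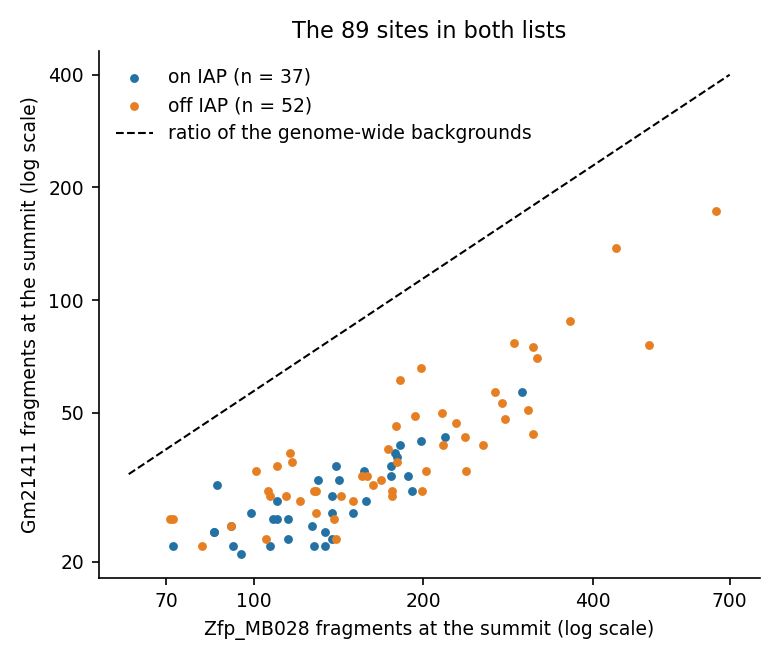
Fragments at the summit of each of the 89 sites in both lists (both axes log), Zfp_MB028 on the horizontal and Gm21411 on the vertical axis, in blue for 37 sites on IAP and orange for 52 off IAP. The dashed line marks the ratio of the commonest backgrounds, 1.75, and all 89 points lie below it.

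The weakest Gm21411 peak held 21 fragments, which at the median ratio of 4.57 stands for 95.9 fragments with Zfp_MB028. Of the 210 Zfp_MB028 peaks with at least that many, 78 were in the Gm21411 list (37.1%, 30.6% to 44.1%), against 11 of 1214 with fewer (0.906%, 0.453% to 1.62%). The lists were cut by fold over local background and not by fragments. Gm21411 peaks stood on local backgrounds of 1.18 to 4.83 fragments, and a higher background asks for more than 21 fragments. Some of the 210 could thus stay under the cutoff at that ratio, and 37.1% is not a share of sites strong enough for the list.

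The strongest sites in both lists were mostly off IAP, that is, not on the provirus internal region. The first was in an intron of Lrp1b, a large receptor of the LDL receptor family, with 663 fragments and a fold of 193 with Zfp_MB028 and 173 fragments and a fold of 72.1 with Gm21411. It ranked 1 in both lists. Next by Zfp_MB028 fold came an exon of Tatdn2, a nuclease gene, with 504 fragments with Zfp_MB028 and 76 with Gm21411. The third, the only one on IAP among the first 10, stood in an intron of Golga3, which encodes a Golgi matrix protein, with 300 and 57 fragments.

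The others of the first 10 held 237 to 365 fragments with Zfp_MB028 and 43 to 88 with Gm21411. They lay in Gm49448, in introns of the adaptor gene Shb, the zinc finger gene Zfp462 and Svil, which encodes the actin-binding protein supervillin, on chromosome X with no protein-coding start within 10 kb, 1962 bp from the start of Casq2, the calsequestrin of heart muscle, and at the start of Ipp. Of the 10 strongest Gm21411 sites, 6 were among the 10 strongest of Zfp_MB028 and all 10 among its 50 strongest.

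The 200 bp centred on each summit were compared with the provirus internal region by blastn. Of the 1423 Zfp_MB028 peaks on chromosomes, 1017 aligned (71.5%), and 37 of the 90 Gm21411 peaks did (41.1%). Alignments centred on the same place in both, a median of 5052 bases into the 6712 of the internal region (75.3% of its length), with 90% of Zfp_MB028 windows between 5005 and 5094. Other IAP binders of the series used other places. Zfp_MB026 has the same DNA-contacting residues as Zfp_MB028 in the first 5 of its 12 fingers. It had 1084 summits on the internal region, Zfp980 23 and Zfp_MB037 38. None of these summits centred within 100 bp of the Zfp_MB028 place.

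Being on an IAP went with a lower share in the Gm21411 list. It was 37 of 1017 Zfp_MB028 peaks on IAP (3.64%, 2.57% to 4.98%) and 52 of 406 off IAP (12.8%, 9.72% to 16.5%). Zfp_MB028 fold itself was lower at the upper end on IAP, where the 90th percentile was 25.4, against 38.1 off IAP, while the medians were 13.7 and 14.3. IAP peaks were 4 of the 20 strongest. At a fold of 30 or more it was 29 of 63 on IAP (46.0%, 33.4% to 59.1%) and 47 of 61 off IAP (77.0%, 64.5% to 86.8%), and these intervals did not overlap, with a median fold of 35.6 on IAP and 42.4 off IAP. In narrower ranges of fold they did. Between 30 and 40 it was 13 of 43 on IAP (30.2%, 17.2% to 46.1%) and 16 of 28 off IAP (57.1%, 37.2% to 75.5%), and between 20 and 30 it was 8 of 126 and 4 of 61. The fragment ratio of the shared sites had a median of 4.6 on IAP (2.69 to 6.16) and 4.55 off IAP (2.73 to 7.11).

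**Figure D3:**
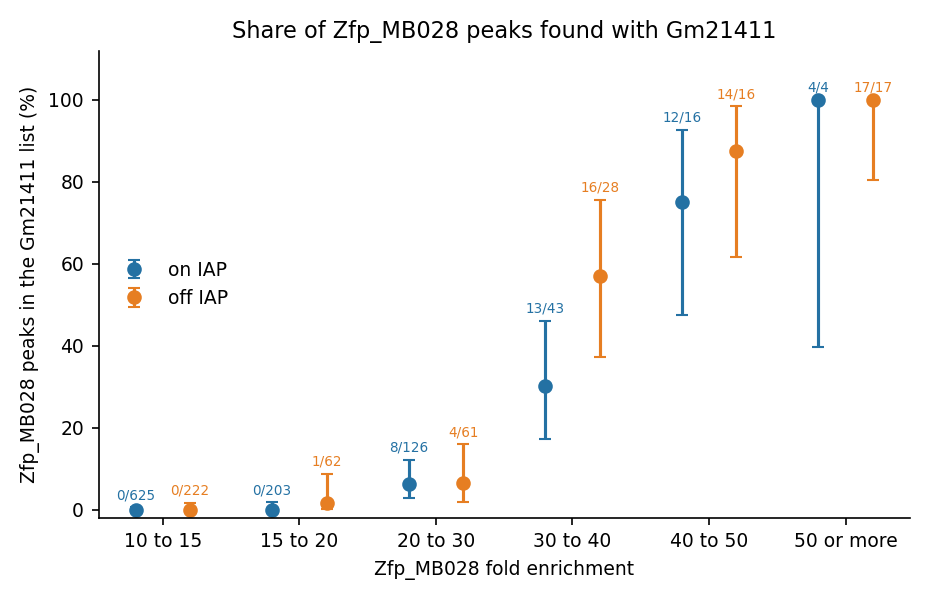
Percent of Zfp_MB028 peaks that are in the Gm21411 list, by Zfp_MB028 fold, in blue on IAP and orange off IAP. Bars are exact 95% binomial intervals and the fractions give the peaks in the list over all peaks. Between folds of 10 and 15 the list held 0 of 625 peaks on IAP and 0 of 222 off IAP, and at 50 or more it held 4 of 4 and 17 of 17.

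The listed motifs belonged to the IAP sites. The study found them in the peaks of these same lists, so their presence there is a description. The Gm21411 motif, searched on both strands, was in 996 of 1017 Zfp_MB028 windows on IAP (97.9%) and 36 of 37 of Gm21411 (97.3%). It was in 0 of 406 windows off IAP for Zfp_MB028 (up to 0.904%) and in 0 of 53 for Gm21411 (up to 6.72%). Among the summit windows of the other 40 lists, 1 of 23462 held it (0.00426%). GRCm39 holds 1693 matches of this motif on its chromosomes, of which 1677 lie on a copy of the IAP segment and 1005 under a Zfp_MB028 peak. Only 16 lie elsewhere, so that few windows off IAP could hold it.

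The genome held 1833 copies of the 200 bp segment around the site at 80% identity or more. A Zfp_MB028 peak covered 1012 of them (55.2%) and a Gm21411 peak 37 (2.02%). With the joined motif intact it was 1000 of 1673 copies for Zfp_MB028 (59.8%, 57.4% to 62.1%) and 37 for Gm21411 (2.21%, 1.56% to 3.04%). With 1 mismatch in the motif it was 11 of 135 for Zfp_MB028 (8.15%, 4.14% to 14.1%) and 0 of 135 for Gm21411 (up to 2.70%).

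A base outside both listed motifs split the IAP copies. Position 6 of the site was C in place of the T of the provirus in 1225 copies that had no other change, and the C stands before a G. Among these T6C copies 696 carried a Zfp_MB028 peak (56.8%, 54.0% to 59.6%) and 2 a Gm21411 peak (0.163%, 0.0198% to 0.589%). Of the 353 copies with the site of the provirus, 299 carried a Zfp_MB028 peak (84.7%, 80.5% to 88.3%) and 35 a Gm21411 peak (9.92%, 7.0% to 13.5%). The intervals of both libraries did not overlap between the 2 sets of copies. They count copies as independent, while many of these copies are identical around the site, as given further on, so that they are too narrow.

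Peaks on the 2 sets of copies differed too. Zfp_MB028 peaks with T6C had a median of 42 fragments and a fold of 12.7 (quartiles 11.3 and 14.7, n = 689), and 2 of them were in the Gm21411 list (0.290%, 0.0352% to 1.04%). Peaks with the site of the provirus had 75 fragments and a fold of 19.9 (14.7 and 26.7, n = 301), and 34 were in the list (11.3%, 7.95% to 15.4%). Local backgrounds were alike, with medians of 2.21 and 2.42 fragments. At matched fold the intervals overlapped. Between 20 and 30, 1 of 28 T6C peaks (3.57%, 0.0904% to 18.3%) and 7 of 93 peaks with the provirus site (7.53%, 3.08% to 14.9%) were in the list. At a fold of 30 or more, 1 of 6 T6C peaks and 27 of 54 peaks with the provirus site were in the list, too few of the first for a comparison.

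Copies with T6C differed from the others elsewhere too. At 4 places of the 200 bp outside the site the commonest base was another one, the nearest 10 bp away. Among copies with the letters of the provirus group at all 4 places, 19 of 29 with T6C carried a Zfp_MB028 peak (65.5%, 45.7% to 82.1%) and 142 of 171 without it (83.0%, 76.6% to 88.3%), and the intervals overlapped. Gm21411 peaks were on 0 of the 29 (up to 11.9%) and on 15 of the 171 (8.77%, 4.99% to 14.1%).

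Reads with several equal placements were put on 1 of them at random. The central 100 bp of the site's surroundings stood at a median of 116 identical places in the genome for T6C copies and at 20 for copies with the provirus site. Among copies whose central 100 bp occur at 1 place, a Zfp_MB028 peak lay on 27 of 73 with T6C (37.0%, 26% to 49.1%) and on 51 of 73 without it (69.9%, 58% to 80.1%). Gm21411 peaks were on 1 and 3 of these 73 copies each, which does not separate the 2 sets.

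Copies with A3G, A9G or G17A had no peak of either list. With A3G, alone or beside T6C, 0 of 52 copies carried one (up to 6.85%), with A9G 0 of 45 (up to 7.87%) and with G17A 0 of 12 (up to 26.5%). T6C stood beside the change in 39 of the A3G copies, 34 of the A9G copies and 6 of the G17A copies. Many of these copies are alike. The central 100 bp stood at a median of 28 identical places for A3G copies and 26 for A9G copies, and at 1 place for 7 and 4 copies, so that the limits, which count copies as independent, are too narrow. Most other changes stood in fewer copies. T8C, alone or beside T6C, had 2 of 7 under a Zfp_MB028 peak, G13A 1 of 9, and G7A beside T6C 0 of 6 (up to 45.9%). T6A stood in 12 copies of lower identity (median 85.3%), of which 0 had a peak.

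Peaks of Zfp_MB026, which binds IAPs elsewhere, gave a second reading near these copies. A Zfp_MB026 summit lay within 6 kb of 2 of 52 A3G copies (3.85%), 9 of 45 A9G copies (20%) and 5 of 12 G17A copies (41.7%). It lay near 36.8% of the copies with the provirus site and 49.4% of those with T6C alone. Of the 9 A9G copies with such a summit, 7 of them without T6C, 0 had a Zfp_MB028 peak (up to 33.6%). With the provirus site it was 116 of 130 copies (89.2%), and with T6C alone 354 of 605 (58.5%). It was 0 of 5 for G17A (up to 52.2%), and for A3G only 2 copies could be compared in this way. F9 cells come from another mouse strain than the reference genome, and how many of these copies they carry was not tested.

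**Figure D4:**
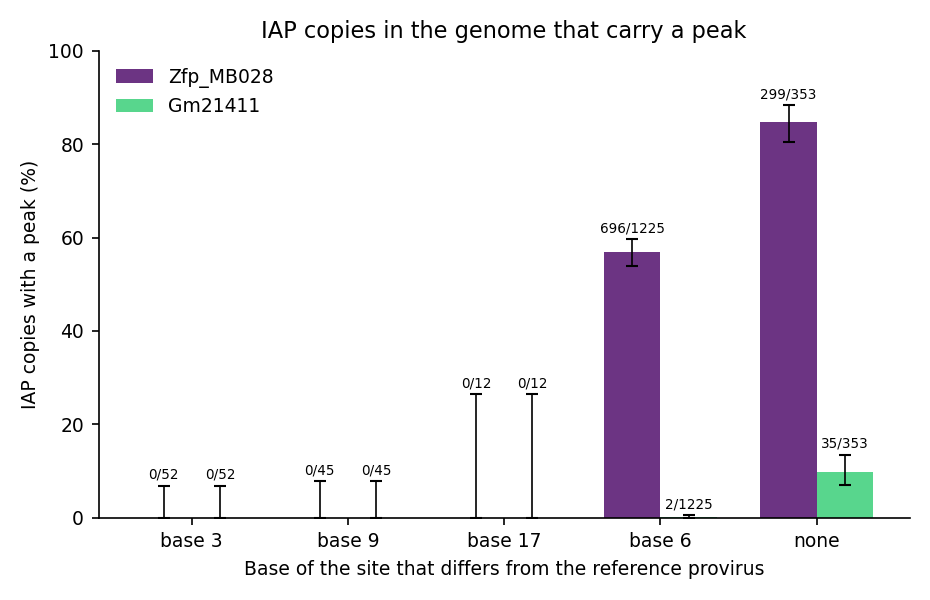
Percent of IAP copies in the genome that carry a Zfp_MB028 peak (purple) or a Gm21411 peak (green), by the base of the site that differs from the reference provirus, with changes at bases 3, 9 and 17 counted alone or together with T6C, and base 6 alone. Bars have exact 95% binomial intervals, which count copies as independent, and the fractions give copies with a peak over all copies. The Zfp_MB028 share is 0% for bases 3, 9 and 17, 56.8% for base 6 and 84.7% without a change.

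Since the Gm21411 motif was not found in any window off IAP, a matrix of 20 bases was learned from 171 Zfp_MB028 windows off IAP on the odd chromosomes and X, with related windows reduced to 1. Its letters of at least 45% frequency read AGAAATATATAGNCCNGNCC. On the 144 windows of the even chromosomes, which were not used to learn it, 115 scored above the 95th percentile of windows 1 kb away (79.9%, 72.4% to 86.1%). That percentile was set on the learning chromosomes, and 7.29% of the windows 1 kb away from the held-out sites passed it. It was 824 of 23462 summit windows of the other 40 lists (3.51%). Between sites in the Gm21411 list and sites not in it the share was 22 of 25 (88.0%, 68.8% to 97.5%) and 93 of 119 (78.2%, 69.6% to 85.2%), which does not separate them.

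No IAP window entered the matrix, and its best match on the internal region of the provirus was nevertheless the site itself, at positions 1 to 20 of the 23. Among Zfp_MB028 windows on IAP, 1002 of 1017 passed the threshold (98.5%). Off-IAP matches lay a median of 24.5 bp from the Zfp_MB028 summit, and 301 of 340 were within 50 bp. For Gm21411, 47 of 53 off-IAP windows passed (88.7%, 77.0% to 95.7%) and 36 of 37 on IAP, but 52 of the 53 are also Zfp_MB028 sites, of which those on the odd chromosomes and X could enter the learning. The matrix had A at 94.4% of sites at position 3, A at 83.8% at position 9 and G at 61.7% at position 17. At position 17 it also had A at 10.7%, as in the Lrp1b site, the strongest of both lists, although G17A copies on IAP had no peak. At position 6 it had T at 70.2% and C at 5.13%. Among T6C copies 56.8% had a Zfp_MB028 peak, and 37.0% of those whose central 100 bp occur at 1 place.

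**Figure D5:**
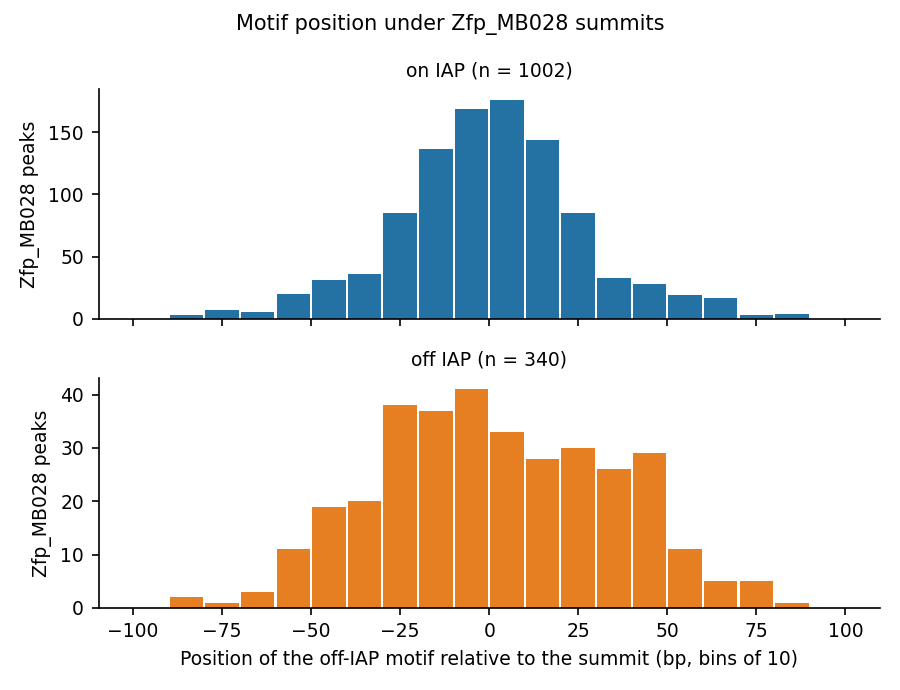
Number of Zfp_MB028 peaks by the distance in bp (bins of 10) of the centre of the best match to the off-IAP matrix from the summit, for 1002 peaks on IAP (top) and 340 off IAP (bottom). Both distributions centre near the summit, with 301 of the 340 off-IAP matches within 50 bp.

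Off-IAP sites shared no more than 18 of the 20 bases with the provirus, with a median of 12. Only 13 of the 340 matches had C at position 6, of which 2 were in the Gm21411 list (15.4%, 1.92% to 45.4%). With T it was 35 of 272 (12.9%, 9.13% to 17.4%). The sites with C are too few to show whether this base separates the lists off IAP.

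Of the 406 off-IAP peaks, 359 had no other off-IAP peak of similar sequence. The largest family had 30 peaks, all on chromosome 14 with summits between 41107398 and 51932194, and 8 of them were in the Gm21411 list. Of the 30, 27 were in introns and 11 in a protein-coding gene, such as Gm3676 and Gm8127. All 30 passed the threshold of the matrix. The 2 commonest of its 5 forms of the site are shown with the bases of the provirus in capitals, at chr14:41174754-41174773 for the strongest peak of the first form and chr14:51828849-51828868 for that of the second (GRCm39, both plus strand).
Family form with T18A: TGAaATGcATAAGCTGGaCC
Family form with T18G: TGAaATGcATAAGCTGGgCC

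Both forms also carry G4A and T8C. Of 8 peaks of the form with T18A, 7 were in the Gm21411 list (87.5%, 47.3% to 99.7%) and their Zfp_MB028 fold had a median of 35.7 (23.9 to 48.3). Of 17 of the form shown with T18G it was 1 (5.88%, 0.149% to 28.7%), with a median fold of 13.5 (10.1 to 31.0). Another 3 peaks had T18G with G4A but not T8C, and 0 of them were in the list. The central 100 bp of the 30 family peaks stood at a median of 2 identical places (1 to 10), among which reads were placed at random. The intervals count peaks as independent and are thus too narrow. Both forms differ in their commonest base at 13 more of the 180 bases around the word, so that position 18 cannot be told apart from these. The matrix showed nearly no preference at position 18, with 22.8% A and 19.4% G.

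Sites in the Gm21411 list lay more often inside genes. Of the Zfp_MB028 summits in the Gm21411 list, 22.5% were intergenic (14.3% to 32.6%) and 15.7% in exons (8.88% to 25%), against 55.2% (52.5% to 57.9%) and 4.50% (3.45% to 5.75%) of those not in it. On IAP, 12 of 37 sites in the list were intergenic (32.4%, 18% to 49.8%), against 644 of 980 not in it (65.7%, 62.6% to 68.7%), and the intervals did not overlap. Off IAP they did, with 15.4% intergenic (6.88% to 28.1%, n = 52) against 26.3% (21.8% to 31.2%, n = 354). For exons the intervals overlapped in both. The exon shares were 8.11% (1.70% to 21.9%) against 1.22% (0.634% to 2.13%) on IAP. They were 21.2% (11.1% to 34.7%) against 13.6% (10.2% to 17.6%) off IAP. Positions were not compared at matched fold. No IAP peak and 52 of the 406 off-IAP peaks (12.8%) lay within 1 kb of the start of a protein-coding gene.

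Of these promoter sites 8 were in both lists, all off IAP. They included Ipp, 71 bp from the start, with 313 fragments with Zfp_MB028 and 75 with Gm21411, and Traip, a ubiquitin ligase gene, with 198 and 66. A site 16 bp from the start of Rnf170, another ubiquitin ligase gene, and inside Hook3, a microtubule adaptor gene, had 182 and 61 fragments. Ipp takes its name from a transcript driven by an IAP in placenta. The peak at its start did not align to the provirus internal region, and LTRs were not searched.

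Erc1, a scaffold protein gene, had 176 fragments with Zfp_MB028 and 30 with Gm21411, and a site in the long non-coding RNA gene Gm69513 near the start of Alad, an enzyme gene of haem synthesis, 313 and 44. A site of the chromosome 14 family 692 bp from the start of Gm17174 had 173 and 40, and Tmem132c 72 and 26. The Alad site had the highest local background of the 8 with Zfp_MB028, at 7.1 fragments.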

How the data were processed

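Paired-end reads were mapped by the authors with BWA on the GRCm39 assembly. They placed reads with equal best alignments at random, removed duplicates and called peaks per library with MACS2 2.2.7.1 against the batch input. Peaks that overlap an empty vector peak, or with a fold enrichment under 10, are not in the lists. The authors' deposited values are a fold ratio over input, -log10 p and q values, and a score, which was not used. SAMtools 1.19 is named by the submitters' processing notes.

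From the deposited lists, whole summit fragments and local background were solved from fold and -log10 p. Windows were aligned with blastn 2.17.0 (at least 100 bp at 80% identity), and genome copies over at least 160 bp at 80%. The provirus is the strongest shared peak off chromosome 18 between direct repeats. Genes came from GENCODE vM39. The off-IAP matrix was learned by expectation maximization from the most enriched word of 8 bases, and it and the base changes were chosen after seeing the data. Chromosome names were read from the RefSeq accessions, with the Gm21411 motif in 996 of 1423 Zfp_MB028 windows and in 0 with the chromosomes rotated. The 1 Zfp_MB028 peak on a scaffold was left out where sequence was needed. Python 3.11.15, numpy 2.4.6, scipy 1.17.1 and pysam 0.24.0 were used, and scripts were tested on simulated data. Read totals were not used.

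Named sites are the 10 strongest shared peaks, Gm21411 peaks outside the Zfp_MB028 list, the 5 strongest Zfp_MB028 peaks outside the Gm21411 list and the weakest in it, shared promoter peaks (within 1000 bp of a start) and the provirus. The members and lists were chosen with earlier results of these data known. A shared promoter site is not reported here.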

Additional observations from a re-analysis of the deposited data

How the results depend on the processing

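Of 70 alternatives, 54 left the value inside the interval of the value reported (for the count of top peaks, within 1.5 times it), 16 did not, and 15 were chosen after seeing the data. No paired analysis was possible because each KZFP has 1 library. Another provirus, another identity and another rule of overlap left each share inside its interval. Asking for a fold of at least 15 in both lists put 4.16% of Zfp_MB028 peaks in the Gm21411 list and 100% of the Gm21411 peaks in the other, and 1.28% of Zfp_MB028 peaks on IAP. A fold of at least 20 gave 3.85% and 100%. These cutoffs also drop Gm21411 peaks. In windows of 100 bp the motif was in 64.2% of Zfp_MB028 windows and in 65.8% of those not in the Gm21411 list. Promoter summits of Zfp_MB028 within 500 bp were 2.11%. A matrix of 16 bases matched 69.4% of the held-out windows.

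Among copies with the site of the provirus, the Zfp_MB028 share was 69.9% where the central 100 bp occur at 1 place and 89.2% with a Zfp_MB026 summit within 6 kb, and the Gm21411 share was 4.11% at 1 place. With T6C the Zfp_MB028 share was 37.0% at 1 place and 65.5% with the same letters at the linked places, and the Gm21411 share was 1.37% and 0%. The cause of these shifts was not tested. Gm21411 numbers are limited by 21 to 173 fragments a peak, and a site absent from its list may lie under the cutoff.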

Other observations

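Of the 1424 Zfp_MB028 peaks, 1336 overlapped no peak of the other 40 lists (93.8%, 92.4% to 95%). It was 73 of 89 for those in the Gm21411 list (82.0%, 72.5% to 89.4%) and 1263 of 1335 for those not in it (94.6%, 93.3% to 95.8%). The same share was not counted for the peaks of the other lists, so 93.8% cannot be called particular to Zfp_MB028. The lists with most overlaps were Zfp_MB026 with 31 Zfp_MB028 peaks, Zfp_MB016 with 25, Zfp982 with 16 and Zfp_MB023 with 13, all of batch 4 but Zfp982 of batch 1. The first 3 are large lists. Their overlap was 0.755% of 4106 Zfp_MB026 peaks, 0.421% of 6183 Zfp_MB016 peaks and 0.337% of 4746 Zfp982 peaks. Over all peaks of the other 40 lists it was 0.506%. Of the 31 sites shared with Zfp_MB026, 8 were also in the Gm21411 list. The Zfp_MB023 overlap is 4.33% of its 300 peaks and 0.913% of those of Zfp_MB028.

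Chromosome 14 held the most Zfp_MB028 peaks, 104 of 1423, of which 47 were off IAP, 30 of them in the local family. In the Chr4 KZFP cluster between Tnfrsf8 and Miip (chr4:144993707-147953273) Zfp_MB028 had 3 of its 1423 summits, all on IAP copies, and Gm21411 had 0 of 90. These are too few to compare the lists. The paper reports sequence gaps in GRCm39 at this cluster, so the counts cover its assembled part only.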
